A study of Mus musculus with 26 samples.

Results

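The results below concern 10 transcription factor genes that mark motor neurons and the progenitor domains of the spinal cord: Mnx1, Olig2, Isl1, Lhx3, Nkx6-1, Nkx2-2, Pax7, Irx3, Neurog2 and Lhx1. They were taken by name from the gene count tables, whatever their values, and all 10 were found among 55291 genes. Bulk RNA-seq of ribosomal RNA-depleted total RNA was counted in 26 mouse libraries of 10 groups, from embryonic stem cells (ESCs) of the E14 line and from neural progenitor cells (NPCs) made from them by 2 days in N2B27 medium on laminin. In the rescue lines, both copies of endogenous CTCF, a DNA- and RNA-binding protein that anchors chromatin loops, carried mAID-eGFP, OsTIR1(F74G) was at Rosa26, and a doxycycline-inducible Flag-Halo CTCF was at Tigre, either wild type (ESC-WT and NPC-WT) or lacking zinc finger ZF1 (ESC-ΔZF1 and NPC-ΔZF1), with 2 libraries a group. All 4 rescue groups had 24 h of 1 µM 5-Ph-IAA, which degrades the tagged endogenous CTCF, and 1 µg/mL doxycycline, which induces the rescue. They also shared a homozygous mCherry reporter joined to the endogenous Mnx1 gene (also called Hb9) through a self-cleaving peptide, and each rescue line was a single clone. The other 18 libraries, 3 a group, were untreated E14 cells (E14 ESC WT, E14 NPC WT) and cells homozygous for an eGFP cassette with the SV40 polyadenylation signal placed after the first coding exon of Podxl (ESC Podxl pA, NPC Podxl pA) or Grb10 (ESC Grb10 pA, NPC Grb10 pA), which ends those transcripts early; the study describes no Mnx1 reporter in them.

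In the ventral neural tube, a gradient of Sonic hedgehog induces some homeodomain and basic helix-loop-helix factors and represses others, and cross-repression between them sets the progenitor domains. Nkx2-2 marks the most ventral neuronal progenitors, Olig2 the motor neuron progenitors, and Nkx6-1 a wider ventral region that includes both, whereas Irx3 is kept to the domains dorsal to the motor neuron progenitors and Pax7 to dorsal progenitors. Neurog2 is the proneural factor that works with Olig2, and Isl1, Lhx3 and Mnx1 are the homeodomain factors of postmitotic motor neurons, while Lhx1 marks lateral motor column neurons and several interneuron classes. Few of these genes belong to the spinal cord alone: Isl1 acts in the heart, Isl1, Mnx1, Nkx2-2 and Nkx6-1 act in the pancreas, and Lhx1 acts in the kidney and in the anterior visceral endoderm.

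The sequences shown here bear on the members that the results turn on. The first is the guide with which the Mnx1 reporter was made, since it shows where the measured gene was altered in the rescue lines. Capitals mark the stop codon of Mnx1, which the guide reads on the opposite strand; it lies at chr5:29473855-29473874 on the plus strand (GRCm38), in exon 3 of 3 of the minus-strand gene.
Mnx1 reporter guide: cgccctggaggcaaCTActg
The second is the promoter of Lhx1, the member that rose from ESCs to NPCs in every line and also in NPC-ΔZF1 against NPC-WT: the 250 bases before its RefSeq start (GRCm38.p6, minus strand, written 5′ to 3′ on that strand). Capitals mark CCCTC on either strand, the repeat that CTCF is named for, and AGGGGGC on either strand, letters of the core of the CTCF motif.
Lhx1 promoter, chr11:84525535-84525784: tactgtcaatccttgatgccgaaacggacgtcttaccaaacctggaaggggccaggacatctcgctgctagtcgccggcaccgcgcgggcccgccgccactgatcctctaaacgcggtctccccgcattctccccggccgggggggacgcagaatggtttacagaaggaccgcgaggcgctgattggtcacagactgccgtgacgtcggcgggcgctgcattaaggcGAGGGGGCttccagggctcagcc
The window held 1 match to each, and they overlapped. Of 32851 such windows in RefSeq, 60.5% held CCCTC and 9.43% held AGGGGGC, and a match is a description of the letters, not of binding.

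The rescue libraries held 6425179 to 28730435 counts each and the remaining 18 held 1907505 to 8845087, and the 10 genes were low in most of them. Of the 260 values (10 genes in 26 libraries), 206 were under 10 counts and 89 were 0. After the filter on low counts, 6 of the 10 were tested in the rescue lines (Irx3, Isl1, Lhx1, Mnx1, Nkx2-2 and Nkx6-1) among 16641 genes, and 3 in the E14 and truncation lines (Irx3, Lhx1 and Mnx1) among 13268 genes. The pluripotency markers Pou5f1, Nanog, Zfp42, Esrrb, Klf4 and Tfcp2l1 summed to 3623 to 5556 CPM (counts scaled to a common library size) in ESC libraries and 349 to 829 CPM in NPC libraries, and all 6 were lower in the NPCs of every line. The neural progenitor markers Sox1, Pax6, Nes, Zic1, Hes5 and Fabp7 summed to 15.95 to 46.3 CPM in ESC libraries and 34.4 to 139 CPM in NPC libraries, with Fabp7 at 0 in 8 of 10 groups. Among the NPC groups, Hes5 was at 0 in NPC-WT and NPC Grb10 pA. The 6 neuron markers, among them Tubb3 and Dcx, summed to 207 to 342 CPM in ESC libraries and 62.2 to 141 CPM in NPC libraries. Dcx was at 0 in ESC-WT, E14 ESC WT, ESC Podxl pA and E14 NPC WT. From ESCs to NPCs, 1 of the 5 neuron markers tested was higher and 3 were lower in the wild-type rescue. In E14 these counts were 0 and 2, and in each of the other lines 1 and 2. Extraembryonic endoderm markers (10 genes, among them Sox17, Gata4 and Gata6) were also detected in NPCs, at 177 to 213 CPM summed in NPC-WT, 1801 to 1888 in NPC-ΔZF1, 502 to 661 in E14 NPC WT, 1079 to 1143 in NPC Podxl pA and 397 to 530 in NPC Grb10 pA. In these bulk samples, fewer cells that express a gene and less of its RNA per cell cannot be told apart.

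Per length, Irx3 was the highest member in every NPC group. Its group means ran from 0.456 to 5.24 RPKM, which scales reads for exon length and library size, against 0.319 to 1.61 for Mnx1, 0 to 0.888 for Lhx1 and 0 to 0.431 for Nkx2-2. The other 6 members had lower highest means, whatever their domain: Lhx3 group means ran from 0.0236 to 0.343 RPKM, Isl1 from 0.0576 to 0.287, Nkx6-1 from 0 to 0.231, Neurog2 from 0 to 0.123, Pax7 from 0 to 0.0858 and Olig2 from 0 to 0.0704. Olig2, Lhx3 and Neurog2 had no group with at least 10 counts in every library, and 7 of the 10 members were under 10 counts in every E14 and truncation library. The map of RPKM by group shows the same ordering, with the Irx3 row darkest in the NPC columns.

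**Figure D1:**
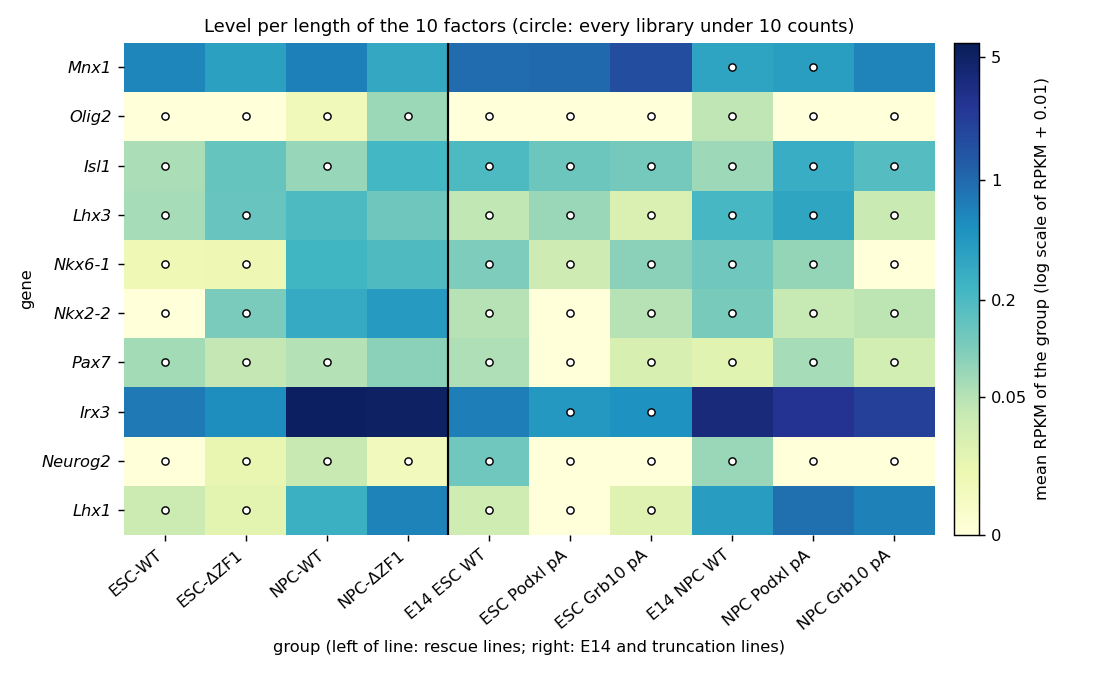
Mean RPKM of each of the 10 factors (rows) in each of the 10 groups (columns, 2 libraries a group left of the line and 3 right of it), with color on a log scale of RPKM + 0.01; a circle marks a group whose libraries were all under 10 counts. Irx3 reached 5.24 RPKM in NPCs, whereas Olig2 did not pass 0.0704 RPKM in any group.

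The first comparison was between NPCs and ESCs of one line, which asks whether these factors came on during the 2 days of differentiation. In the rescue lines with wild-type CTCF, Irx3, Lhx1, Nkx2-2 and Nkx6-1 rose, while Isl1 and Mnx1 did not pass the test. Thus 4 of the 6 tested members were higher and 0 were lower in NPC-WT than in ESC-WT (edgeR's quasi-likelihood test, Benjamini-Hochberg adjustment; a call needed an adjusted p of 0.05 or less together with a change of 0.5 or more, up or down, on the log2 scale), where 22.0% of all tested genes were higher and 19.9% lower. The median log2 fold change of the 6 was 2.93, or 2.72 with 3 counts set for Nkx2-2 in ESC-WT, beside 0.01 for all genes. Lhx1, Nkx2-2 and Nkx6-1 were under 10 counts in every rescue ESC library and passed the filter on low counts through NPC libraries. Genes that pass in this way can hardly be called lower in NPCs, so the count and the median are in part set by the filter.

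Irx3, the factor of the more dorsal domains, had 17 and 25 counts in the ESC-WT libraries and 258 and 210 in the NPC-WT libraries. Both NPC-WT libraries were above both ESC-WT libraries in CPM, at 14.5 ± 5.03 against 2.11 ± 0.683 (mean ± SD, n = 2 each). Its log2 fold change was 2.85 ± 0.36 (SE; edgeR adjusted p = 0.000136). The same was seen in NPC-ΔZF1, with 353 and 422 counts against 15 and 29 in ESC-ΔZF1. The log2 fold change there was 3.17 ± 0.34 (edgeR adjusted p = 4.89e-05), and the groups did not overlap.

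Lhx1, the LIM homeodomain factor of interneurons and lateral motor neurons, had 1 and 2 counts in ESC-WT, and 36 and 7 in NPC-WT. The NPC-WT libraries were above the ESC-WT libraries but far apart from each other, at 1.06 ± 0.652 CPM. The ratio of the pooled CPM was 8.90 (95% counting interval 2.85 to 44.8, counting error only), and the fitted log2 fold change was 3.01 ± 0.71 (edgeR adjusted p = 0.00573). In NPC-ΔZF1 it had 72 and 77 counts against 1 and 1 in ESC-ΔZF1, a pooled ratio of 38.1 (10.4 to 318), with a fitted log2 fold change of 5.12 ± 0.64 (edgeR adjusted p = 0.000128). Without ESC-WT replicate 2 or NPC-WT replicate 1 the call in the wild-type rescue was lost (adjusted p = 0.0924 and 0.0630).

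Nkx2-2, of the most ventral neuronal progenitors, had 0 and 0 counts in ESC-WT and 17 and 12 in NPC-WT. The NPC-WT level was at least 6.001-fold higher, taking 3 counts over the pooled ESC-WT libraries as the floor (edgeR adjusted p = 0.00339). In the ΔZF1 line the counts were 2 and 7 in ESCs and 36 and 33 in NPCs, so that the ESC libraries were no longer at 0. There the log2 fold change was 1.95 ± 0.54 (edgeR adjusted p = 0.0172). That call was lost with DESeq2 (adjusted p = 0.0572) and without ESC-ΔZF1 replicate 1 or either NPC-ΔZF1 replicate (0.0622 to 0.129).

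Nkx6-1, of the broader ventral domain, had 0 and 1 counts in ESC-WT, and 16 and 9 in NPC-WT. It had 0 and 1 in ESC-ΔZF1, and 23 and 11 in NPC-ΔZF1. In both lines the NPC libraries were above the ESC libraries, with pooled ratios of 15.5 (2.54 to 637) and 17.4 (2.92 to 707), each over 1 ESC count. The edgeR adjusted p-values were 0.0123 and 0.00919, and the calls were lost without ESC-WT replicate 1 or 2 (0.0506 and 0.0767) and without ESC-ΔZF1 replicate 1 or NPC-ΔZF1 replicate 1 (0.0712 and 0.0565).

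In the ΔZF1 line, as in the wild-type rescue, 4 of the 6 tested members rose from ESCs to NPCs and 0 fell, where 20.4% of all tested genes were higher and 16.9% lower. The median log2 fold change of the 6 was 2.56, beside 0.02 for all genes. Isl1, a LIM homeodomain factor of motor neurons, had 0 and 7 counts in ESC-WT and 4 and 5 in NPC-WT, and the groups overlapped in CPM. Its log2 fold change was -0.22 (edgeR adjusted p = 0.860) in the wild-type rescue and 0.68 (adjusted p = 0.395) in the ΔZF1 line.

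The members that were too low to test in the rescue lines had at most 16 counts in any rescue library. Lhx3, which pairs with Isl1 in motor neurons, had 2 and 1 counts in ESC-WT and 8 and 10 in NPC-WT, a pooled ratio of 3.73 (1.09 to 19.7). In the ΔZF1 line Lhx3 had 5 and 7 counts in ESCs and 5 and 16 in NPCs. The log2 fold change there was -0.11 with no filter on low counts. Olig2, of the motor neuron progenitor domain, had 0 counts in all 4 rescue ESC libraries, 1 and 0 in NPC-WT, and 7 and 3 in NPC-ΔZF1. Olig2 was thus detected in both NPC-ΔZF1 libraries. Its pooled level there was 1.71-fold the floor set for ESC-ΔZF1, which leaves out the error of its own few counts. Pax7, of dorsal progenitors, had 2 to 4 counts in the ESC libraries, 6 and 4 in NPC-WT and 15 and 13 in NPC-ΔZF1. In CPM, Pax7 in NPC-ΔZF1 (0.528 and 0.477) overlapped ESC-WT (0.610 and 0.130). Neurog2, the proneural factor, had 0 to 2 counts in the 8 rescue libraries. In a fit with no filter on low counts none of these 4 passed an adjusted p of 0.05 in the rescue lines, and the lowest was Lhx3 in NPC-WT against ESC-WT (edgeR adjusted p = 0.130).

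In the E14 and truncation lines, Irx3 and Lhx1 again rose from ESCs to NPCs, and Mnx1 fell, so that 2 of the 3 tested members were higher and 1 was lower in each of the 3 lines. The background was 16.5% of genes higher and 16.3% lower in E14 NPC WT against E14 ESC WT. It was 17.1% and 14.7% for NPC Podxl pA against ESC Podxl pA, and 17.2% and 17.4% for NPC Grb10 pA against ESC Grb10 pA. The median log2 fold changes of the 3 members were 2.23, 2.61 and 2.15, beside -0.01, -0.02 and -0.02 for all genes. Irx3 and Lhx1 passed the filter on low counts through NPC libraries and Mnx1 through ESC libraries. The counts of members called and the medians are therefore in part set by the filter.

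Irx3 had 16, 12 and 1 counts in E14 ESC WT and 22, 77 and 35 in E14 NPC WT. It had 5, 7 and 3 in ESC Podxl pA, and 33, 40 and 39 in NPC Podxl pA. It had 4, 7 and 4 in ESC Grb10 pA, and 55, 26 and 28 in NPC Grb10 pA. In CPM, every NPC library was above every ESC library of its line. The log2 fold changes were 2.23 ± 0.33, 2.61 ± 0.40 and 2.15 ± 0.40 (edgeR adjusted p = 3.60e-06, 4.44e-06 and 7.11e-05).

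Lhx1 was nearly absent from these ESCs, with 0, 0 and 1 counts in E14 ESC WT, 0, 0 and 0 in ESC Podxl pA and 0, 0 and 1 in ESC Grb10 pA. The NPC counts were 3, 11 and 7 in E14, 13, 18 and 25 in Podxl pA, and 17, 10 and 23 in Grb10 pA. The pooled ratios were 21.7 (3.48 to 896) in E14 and 31.3 (5.37 to 1261) in Grb10 pA, and the Podxl pA level was at least 15.5-fold higher. Every NPC library was above every ESC library of its line, and the edgeR adjusted p-values were 0.000781, 3.56e-05 and 1.49e-06 in E14, Grb10 pA and Podxl pA.

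Mnx1, the motor neuron homeodomain factor, went the other way in these lines. It had 9, 12 and 6 counts in E14 ESC WT and 4, 5 and 1 in E14 NPC WT. It had 7, 13 and 6 in ESC Podxl pA, and 5, 4 and 4 in NPC Podxl pA. It had 18, 8 and 18 in ESC Grb10 pA, and 12, 8 and 6 in NPC Grb10 pA. All NPC libraries were below all ESC libraries of their line in CPM, although most of the counts were under 10. The levels were 0.795 ± 0.478 against 2.11 ± 0.190 CPM in E14, 0.898 ± 0.333 against 2.24 ± 0.756 CPM in Podxl pA and 1.45 ± 0.491 against 3.63 ± 0.780 CPM in Grb10 pA (NPC against ESC, mean ± SD, n = 3 each). The log2 fold changes were -1.36 ± 0.48, -1.24 ± 0.45 and -1.40 ± 0.36 (edgeR adjusted p = 0.0218, 0.0269 and 0.00183). With DESeq2 the first 2 missed the threshold (adjusted p = 0.0626 and 0.0710), and so did the E14 value without E14 ESC WT replicate 2 or E14 NPC WT replicate 2 or 3 (edgeR adjusted p = 0.0514, 0.0910 and 0.0780) and the Podxl pA value without replicate 2 or 3 of either group (0.0737 to 0.105).

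In the rescue lines, which carry the mCherry reporter at the Mnx1 stop codon printed above, Mnx1 was not called in either NPC against ESC comparison. It had 9 and 22 counts in ESC-WT and 37 and 18 in NPC-WT, and 1.403 ± 0.0417 against 1.55 ± 0.0145 CPM. The NPC-WT libraries were above the ESC-WT libraries by a small margin, with a log2 fold change of 0.14 and a 95% interval from -0.87 to 1.16 (edgeR adjusted p = 0.819). In the ΔZF1 line it had 6 and 19 counts in ESCs and 23 and 17 in NPCs, and the groups overlapped in CPM. The log2 fold change there was -0.28, with an interval from -1.35 to 0.79 (edgeR adjusted p = 0.674). Both tables were counted and normalized separately, so the difference between the rescue lines and the others was not tested, and the part of the reporter, the clone and the treatment in it was not tested.

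**Figure D2:**
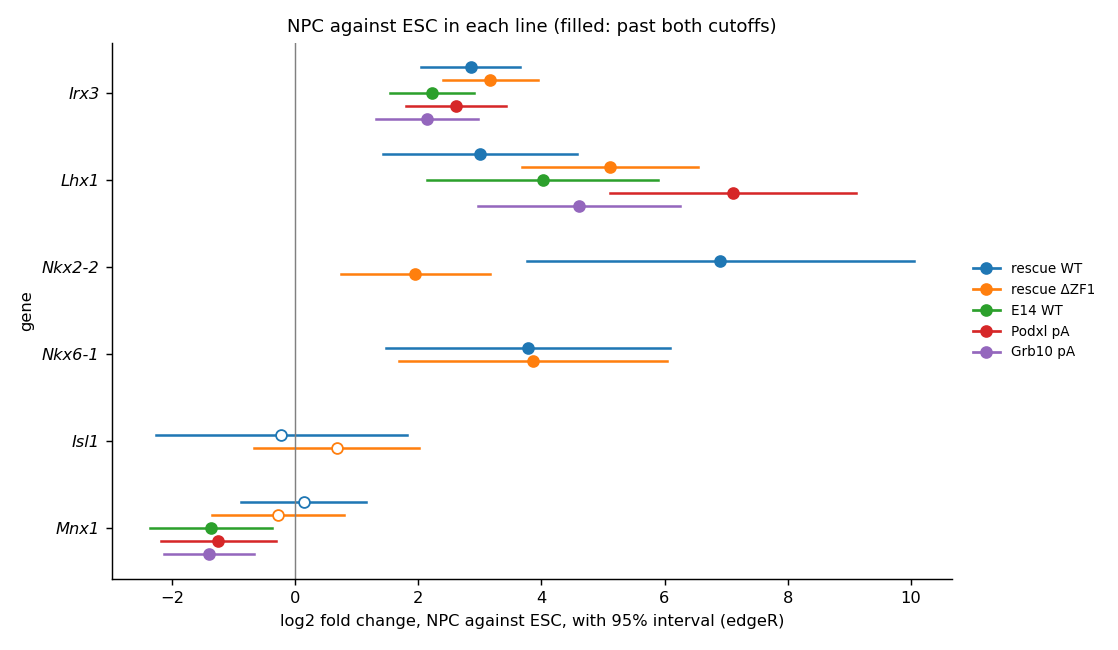
Log2 fold change of NPCs against ESCs (x axis; bars, 95% interval of the edgeR fit) for the 6 members tested in at least 1 table (y axis), with a color for each line and filled points past both cutoffs. Irx3 and Lhx1 sit above 0 in all 5 lines, and Mnx1 sits at -1.36, -1.24 and -1.40 in E14, Podxl pA and Grb10 pA but near 0 in the rescue lines; Nkx2-2, Nkx6-1 and Isl1 have points for the rescue lines only, and Nkx2-2 in the wild-type rescue and Lhx1 in Podxl pA have ESC libraries at 0, so that their fitted values are no bounds.

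**Figure D3:**
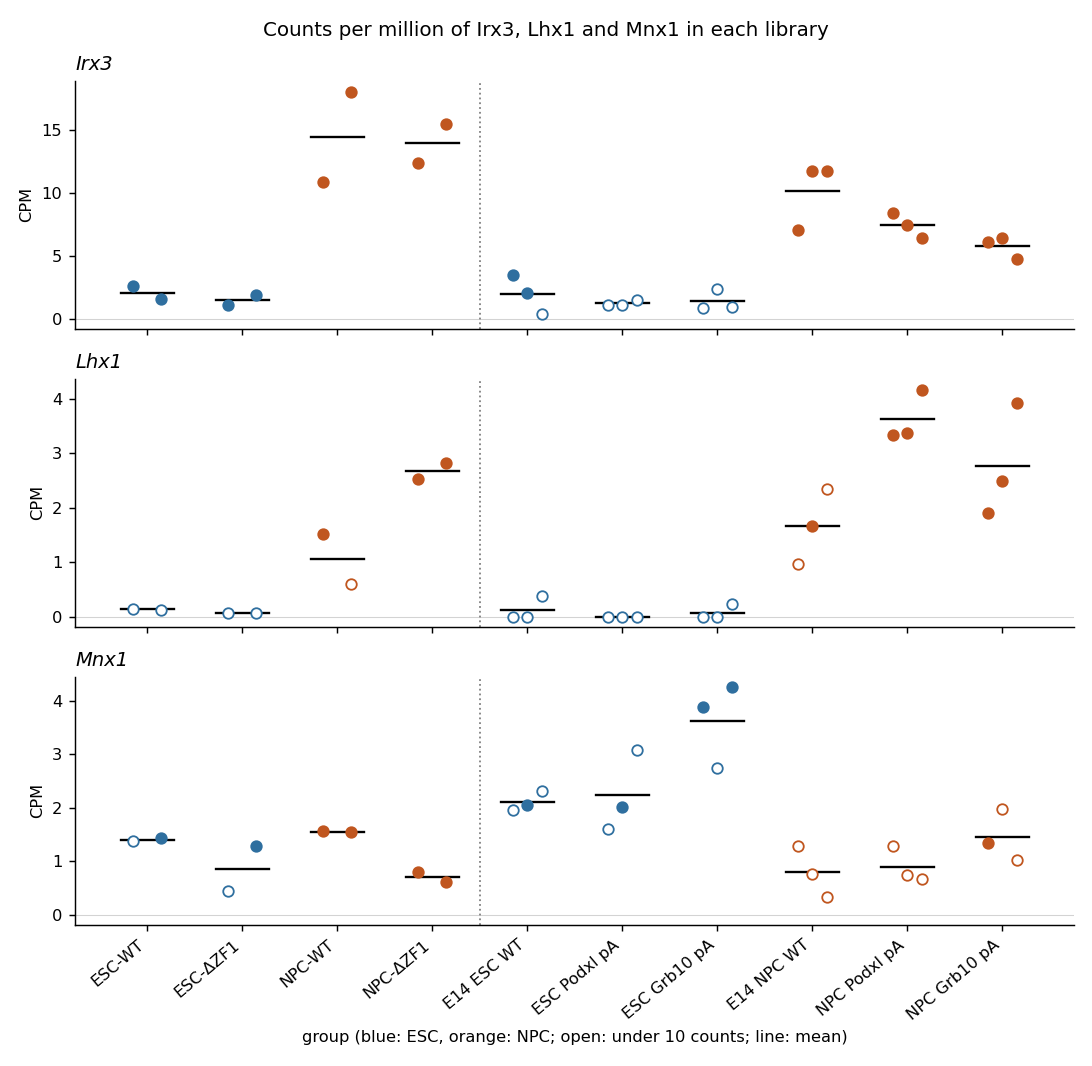
CPM of Irx3, Lhx1 and Mnx1 (y axis) in each of the 26 libraries by group (x axis; blue ESC, orange NPC; open points are under 10 counts, lines are group means, and the dotted line parts the rescue groups from the others). Irx3 and Lhx1 are higher in NPCs throughout, whereas Mnx1 means run from 0.795 CPM in E14 NPC WT to 3.63 CPM in ESC Grb10 pA and from 0.717 CPM in NPC-ΔZF1 to 1.55 CPM in NPC-WT.

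The next comparison was between the ΔZF1 and wild-type rescue lines, within ESCs and within NPCs. Each line was a single clone, so the loss of the finger and differences between the clones cannot be told apart. In ESCs, 0 of the 6 tested members were called in either direction by edgeR, DESeq2 or any fit that left out 1 library, where 1.29% of all tested genes were higher and 2.33% lower. At an unadjusted p under 0.05 the edgeR count was 1 (Nkx2-2). The log2 fold changes were -0.69 for Mnx1, -0.35 for Irx3, 0.85 for Isl1, -0.90 for Lhx1 and -0.31 for Nkx6-1, with a median of -0.33 for the 6 beside -0.01 for all genes. Isl1 had 6 and 10 counts in ESC-ΔZF1 and 0 and 7 in ESC-WT. Lhx1 had 1 and 1 against 1 and 2, and Nkx6-1 had 0 and 1 in each group. The median thus rests in part on values under 10 counts. Nkx2-2 had 2 and 7 counts in ESC-ΔZF1 and none in ESC-WT, at least 2.31-fold higher (edgeR adjusted p = 0.130).

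In NPCs, Lhx1 was the 1 member called, and it rose. Of the 6 tested, 1 was higher and 0 were lower, where 7.19% of all tested genes were higher and 10.5% lower. Lhx1 passed the filter on low counts through both NPC-ΔZF1 libraries and NPC-WT replicate 1. Its call and the count are therefore in part set by the filter. Lhx1 had 36 and 7 counts in NPC-WT, and 72 and 77 in NPC-ΔZF1. In CPM these were 1.06 ± 0.652 and 2.68 ± 0.207 (n = 2 each), and the groups did not overlap. The log2 fold change was 1.21 ± 0.37, with a 95% interval from 0.38 to 2.04 (edgeR adjusted p = 0.0436). The call depended on single libraries: without NPC-WT replicate 1 the log2 fold change was 2.14 and without NPC-WT replicate 2 it was 0.80 (adjusted p = 0.0978), it was also lost without NPC-ΔZF1 replicate 1 or 2 (0.158 and 0.217) and with DESeq2 (0.136), and over all 11 alternatives the adjusted p ran from 0.00139 to 0.217.

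Other measures also differed between NPC-ΔZF1 and NPC-WT. The median log2 fold change of the 1322 tested genes of chromosome 11, where Lhx1 lies (chr11:84518284-84525535), was -0.57 in NPCs and -0.46 in ESCs, opposite in sign to Lhx1 in NPCs, and with chromosome medians taken into the fit Lhx1 rose by 1.77 (edgeR adjusted p = 0.0114). All 10 extraembryonic endoderm markers were higher in NPC-ΔZF1 than in NPC-WT, with a median log2 fold change of 3.03, and each was detected in both groups. Of the other lists, neural progenitor markers had 2 higher and 1 lower of 4, surface ectoderm markers 1 higher and 2 lower of 5, neuron markers 1 and 1 of 5, mesoderm markers 1 higher of 4 and cardiac mesoderm markers 1 lower of 3. The part of these in the Lhx1 value was not tested.

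The other tested members did not pass in NPCs. Mnx1 had 37 and 18 counts in NPC-WT, and 23 and 17 in NPC-ΔZF1. The CPM were 1.57 and 1.54 against 0.809 and 0.624, so that both ΔZF1 libraries were lower. The log2 fold change was -1.11, with an interval from -2.07 to -0.15 (edgeR adjusted p = 0.0957), which does not pass after adjustment over all genes. Isl1 had 4 and 5 counts in NPC-WT, and 21 and 29 in NPC-ΔZF1, and again the groups did not overlap. Isl1 passed the filter on low counts only through ΔZF1 libraries, so the direction of its change is in part set by the filter. Its log2 fold change was 1.75, with an interval from 0.25 to 3.25 (edgeR adjusted p = 0.0920).

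Nkx2-2 and Nkx6-1 had log2 fold changes of 0.55 and -0.23 (edgeR adjusted p = 0.400 and 0.782). Irx3, at 14.5 ± 5.03 CPM in NPC-WT and 13.96 ± 2.17 in NPC-ΔZF1, had a log2 fold change of -0.03, with an interval from -0.61 to 0.56 (edgeR adjusted p = 0.952). The 6 had a median of 0.26, beside -0.00262 for all genes. Lhx1 and Isl1 passed the filter on low counts mainly through ΔZF1 libraries, so this median is in part set by the filter. Olig2, which was not tested, had a pooled ratio of 6.34 (0.902 to 275) of NPC-ΔZF1 to NPC-WT, 10 counts over 1, an interval that includes 1.

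Whether the effect of ΔZF1 differed between NPCs and ESCs was tested as an interaction, in which ΔZF1 and clone again cannot be told apart. None of the 6 members passed by edgeR, where 1.59% of all tested genes were higher and 1.11% lower, and 1 (Nkx2-2) had an unadjusted p under 0.05. The median difference of the 6 was 0.20, beside 0.01 for all genes, and the single differences were -0.42 for Mnx1 (edgeR adjusted p = 0.771), 2.11 for Lhx1 (0.424) and 0.90 for Isl1 (0.700). The call of Lhx1 in NPCs and its lack in ESCs is therefore not shown to be a difference between them. DESeq2 likewise called 0 members.

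The truncation comparisons ask whether ending Podxl or Grb10 transcripts early changes these factors; they share the E14 WT libraries. In ESC Podxl pA against E14 ESC WT, 0 of 3 tested members were called, where 0.0829% of all tested genes were higher and 0.256% lower. In NPC Podxl pA against E14 NPC WT, 0 of 3 were called, where 0.384% were higher and 0.166% lower. Lhx1 was nearest, at 3.62 ± 0.462 CPM in NPC Podxl pA against 1.66 ± 0.692 in E14 NPC WT (n = 3 each), with all Podxl pA libraries above all E14 libraries. Its log2 fold change was 1.13, with an interval from 0.27 to 1.98 (edgeR adjusted p = 0.306). There, too, extraembryonic endoderm markers were higher (4 of 8 tested), and their part was not tested.

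The other 2 members had log2 fold changes of -0.49 for Irx3 (edgeR adjusted p = 0.546) and 0.11 for Mnx1 (adjusted p = 0.976) in NPC Podxl pA. Isl1, under the filter, had 6, 2 and 9 counts in NPC Podxl pA and 1, 1 and 1 in E14 NPC WT, a pooled ratio of 4.70 (1.36 to 25.01). With no filter on low counts its adjusted p was 0.564. In ESC Podxl pA the log2 fold changes were -0.88 for Irx3, -0.01 for Mnx1 and -1.96 for Lhx1, which had 1 count in the 3 E14 libraries and 0 in the Podxl pA libraries. At an unadjusted p under 0.05, edgeR had 0 of 3 members in ESC Podxl pA and 1 in NPC Podxl pA, and DESeq2 called 0 in both. The medians of the 3 were -0.88 in ESC Podxl pA and 0.11 in NPC Podxl pA with all genes at -0.00154 and -0.00115.

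In ESC Grb10 pA against E14 ESC WT, 0 of 3 members were called, where 4.51% of all tested genes were higher and 4.58% lower. Mnx1 was at 3.88, 2.75 and 4.25 CPM in ESC Grb10 pA and at 1.96, 2.05 and 2.32 CPM in E14 ESC WT, so that every Grb10 pA library was higher. Its log2 fold change was 0.83, with an interval from 0.10 to 1.56 (edgeR adjusted p = 0.117). Irx3 had -0.77 (adjusted p = 0.339). At an unadjusted p under 0.05, edgeR had 1 of the 3, and DESeq2 called 0.

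In NPC Grb10 pA against E14 NPC WT, Irx3 fell, and 0 of 3 members were higher and 1 was lower, where 7.90% of all tested genes were higher and 8.64% lower. Irx3 was at 5.80 ± 0.901 CPM in NPC Grb10 pA and 10.2 ± 2.68 in E14 NPC WT (n = 3 each), with all Grb10 pA libraries lower. The log2 fold change was -0.84 ± 0.26, with an interval from -1.39 to -0.30 (edgeR adjusted p = 0.0172). Irx3 lies on chromosome 8 (chr8:91798525-91802067), whose 730 tested genes had a median of -0.48 in this comparison and -0.49 in ESC Grb10 pA. With chromosome medians taken into the fit, Irx3 fell by 0.36 and was not called (edgeR adjusted p = 0.333). The call was also lost without E14 NPC WT replicate 2 or 3, or NPC Grb10 pA replicate 3 (0.133, 0.0581 and 0.0773).

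Several marker lists differed in the same libraries. Neural progenitor markers summed to 34.4 to 43.7 CPM in NPC Grb10 pA and 103 to 114 CPM in E14 NPC WT, and 3 of the 3 tested were lower, with Hes5 and Fabp7 at 0 in NPC Grb10 pA. Neuron markers summed to 62.2 to 64.1 against 131 to 141 CPM (2 of 5 tested lower), and extraembryonic endoderm markers had 2 of 8 lower. Mesoderm markers summed to 62.3 to 76.0 against 33.5 to 36.9 CPM (1 of 2 tested higher), cardiac mesoderm markers had 1 of 2 higher, and pluripotency markers summed to 770.0 to 829 against 629 to 720.04 CPM (3 of 6 higher, 1 lower). The part of these in the Irx3 value was not tested. Lhx1 (log2 fold change 0.69, edgeR adjusted p = 0.240) and Mnx1 (0.79, adjusted p = 0.243) were not called, and their groups overlapped. Nkx6-1, under the filter, had 0 counts in all 3 NPC Grb10 pA libraries and 1, 1 and 2 in E14 NPC WT.

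The change from ESCs to NPCs was compared between each truncation line and E14 as an interaction. None of the 3 members passed by edgeR or DESeq2: Irx3 had 0.39 and -0.08, Lhx1 3.08 and 0.59, and Mnx1 0.12 and -0.04 in Podxl pA and Grb10 pA, with edgeR adjusted p-values from 0.650 to 0.990. The Lhx1 value of 3.08 was fitted with ESC Podxl pA at 0 counts and E14 ESC WT at 1, and is no bound. The background was 0.0678% higher and 0.0301% lower in the Podxl pA test, and 2.86% and 3.04% in the Grb10 pA test. At an unadjusted p under 0.05, edgeR had 0 and 0 of the 3 members.

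**Figure D4:**
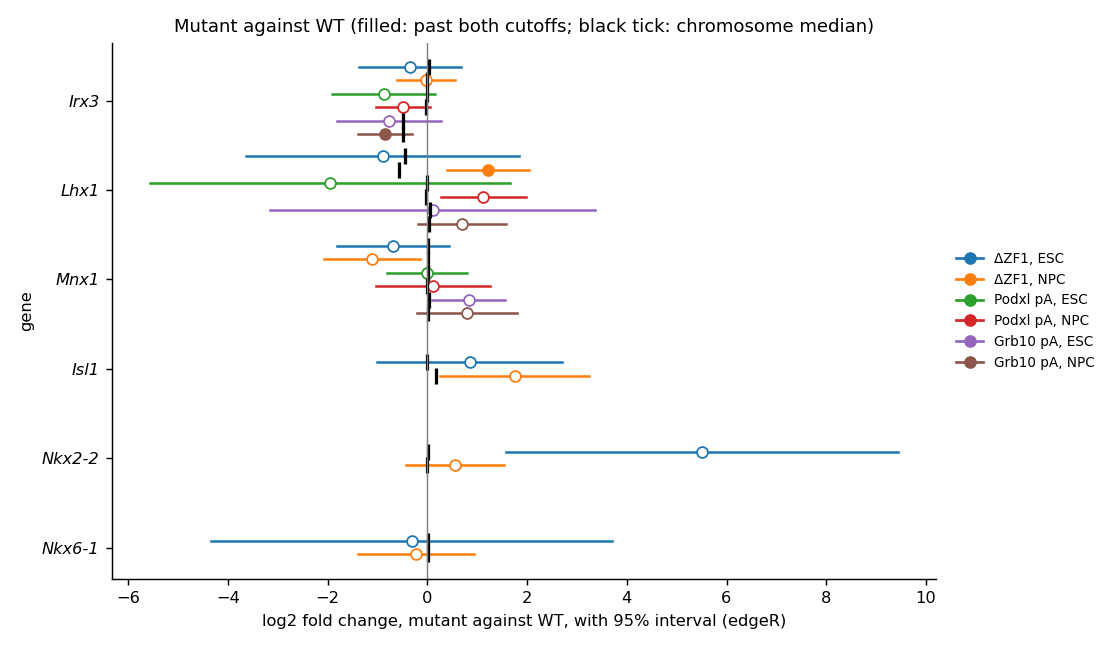
Log2 fold change of each mutant against its wild type (x axis; bars, 95% interval of the edgeR fit) for the members tested (y axis), with a color for each mutant and cell type, filled points past both cutoffs and a black tick at the median of the gene's chromosome. Lhx1 in NPC-ΔZF1 (1.21) and Irx3 in NPC Grb10 pA (-0.84) are the filled points, with ticks at -0.57 for chromosome 11 and -0.48 for chromosome 8. The ESC-ΔZF1 value of Nkx2-2 and the ESC Podxl pA value of Lhx1 are fitted with a group at 0 and are no bounds.

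The order of the groups was compared within each table. In the rescue lines Irx3 was highest in NPC-WT, which overlapped NPC-ΔZF1, and both were above the ESC groups, whereas Lhx1 was highest in NPC-ΔZF1, then NPC-WT, ESC-WT and ESC-ΔZF1, with no overlap between neighbors. The rescue ESC libraries held only 1 or 2 counts of Lhx1, so the order of these ESC groups rests on single counts. Mnx1 ran from NPC-WT to ESC-WT, ESC-ΔZF1 and NPC-ΔZF1, and only the last 2 overlapped. In the other table Mnx1 ran from ESC Grb10 pA to ESC Podxl pA, E14 ESC WT, NPC Grb10 pA, NPC Podxl pA and E14 NPC WT, and each neighbor overlapped the next. Lhx1 ran from NPC Podxl pA to NPC Grb10 pA and E14 NPC WT, and Irx3 from E14 NPC WT to NPC Podxl pA and NPC Grb10 pA, in both cases with every ESC group below.

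Genes of the same domains that are not among the 10 gave the setting. Of 11 further ventral progenitor factors, 9 were tested in the rescue lines, and in NPC-WT against ESC-WT 4 were higher (Foxa2, Nkx2-9, Irx5 and Irx1, named here after their values were seen) and 1 was lower (Nkx6-2). In NPC-ΔZF1 against ESC-ΔZF1 4 were higher and 2 lower. Foxa2, which marks the floor plate and also endoderm, had the largest change there, from 0.276 ± 0.182 CPM in ESC-ΔZF1 to 16.7 ± 1.25 CPM in NPC-ΔZF1, and rose by 5.86 ± 0.31 on the log2 scale (edgeR adjusted p = 6.66e-07). Irx5, a neighbor of Irx3 in one gene cluster, rose by 3.37 in the same comparison (edgeR adjusted p = 5.67e-05). The list's medians were 0.68 in NPC-WT and 1.00 in NPC-ΔZF1. Over all tested genes 22.0% were higher and 19.9% lower in NPC-WT, and 20.4% and 16.9% in NPC-ΔZF1, each against its ESCs.

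In the E14, Podxl pA and Grb10 pA lines, 5 of the 11 were tested and 3 were higher and 2 lower in each. Foxa2, Irx5 and Pax6 were higher and Irx2 and Nkx6-2 lower (all 5 named whatever their rank); the medians were 1.63, 1.94 and 1.91. Against wild type, 1 of 9 was higher in NPC-ΔZF1 and 0 were lower: Foxa2, at 16.7 ± 1.25 CPM against 2.60 ± 0.0342 in NPC-WT, with a log2 fold change of 2.68 (edgeR adjusted p = 8.10e-05). In NPC Grb10 pA 2 of 5 were lower than in E14 NPC WT, Irx5 at -1.60 and Pax6 at -1.12 (edgeR adjusted p = 0.00175 and 0.00732). Irx5 lies on chromosome 8 with Irx3. For NPCs against ESCs the shares of all tested genes were 16.5% higher and 16.3% lower in E14. They were 17.1% and 14.7% in Podxl pA, and 17.2% and 17.4% in Grb10 pA. Against wild type they were 7.19% and 10.5% in NPC-ΔZF1, and 7.90% and 8.64% in NPC Grb10 pA.

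Of 12 ventral neuron factors, 6 were tested in the rescue lines and 3 in the others. Gata2 and Gata3, which act in V2b interneurons and also in trophoblast and surface ectoderm, were the 2 that rose in NPC-WT, and 0 fell. Over all tested genes 22.0% were higher and 19.9% lower there. Gata2 was at 252 ± 35.0 CPM in NPC-WT and 14.01 ± 2.41 in ESC-WT, a log2 fold change of 4.19, and Gata3 rose by 4.40 (edgeR adjusted p = 2.53e-07 and 5.57e-07). The surface ectoderm markers Krt5, Krt14, Trp63, Tfap2a, Grhl2 and Krt7 summed to 108 to 136 CPM in NPC-WT and 67.6 to 68.7 in NPC-ΔZF1, and all 5 tested were higher in NPC-WT than in ESC-WT. Of the motor neuron genes of this list, Slc18a3, the vesicular acetylcholine transporter, had a log2 fold change of 0.64 in NPC-WT against ESC-WT (edgeR adjusted p = 0.321) and rose by 1.89 ± 0.51 in NPC-ΔZF1 against ESC-ΔZF1 (adjusted p = 0.0128). In the E14 and truncation lines Slc18a3 was too low to test, but it was at least 6.88-fold higher in E14 NPC WT (20 counts) and at least 8.604-fold higher in NPC Podxl pA (31 counts) than in ESCs, which had 0, and in Grb10 pA the ratio was 1.25 (0.267 to 7.74). Chat, Isl2 and Lhx4 were too low to test.

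In NPC-ΔZF1 against NPC-WT 1 of the 6 was higher, Evx1 at 2.33, and 3 were lower, Foxn4 at -2.06, Gata2 at -1.21 and Gata3 at -0.68. In NPC-ΔZF1 against ESC-ΔZF1 3 were higher and 1 lower, led by Gata3 at 3.24. In the other lines NPCs had 1 of 3 higher in E14, 2 higher in Podxl pA, and 1 higher and 2 lower in Grb10 pA. Gata3 was the gene higher in all 3, by 4.31, 3.29 and 4.58. The shares over all tested genes were 7.19% higher and 10.5% lower in NPC-ΔZF1 against NPC-WT, and 20.4% and 16.9% in NPC-ΔZF1 against ESC-ΔZF1. For E14, Podxl pA and Grb10 pA they are given with the ventral progenitor factors. Gata2 and Foxn4 were higher in ESC Grb10 pA than in E14 ESC WT (1.28 and 0.94; edgeR adjusted p = 0.00151 and 0.0258) and lower in NPC Grb10 pA than in E14 NPC WT (-1.21 and -1.24; adjusted p = 0.00590 and 0.0112).

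Of 19 dorsal spinal cord factors, 12 were tested in the rescue lines and 6 in the others. In NPC-WT 8 were higher than in ESC-WT and 1 was lower, with a median log2 fold change of 1.67. The shares of all tested genes were 22.0% higher and 19.9% lower, and in the ΔZF1 line 20.4% and 16.9%. Msx1 and Msx2, of the roof plate and dorsal progenitors, rose by 3.10 and 2.94 (edgeR adjusted p = 4.54e-05 and 5.83e-07). Pax3 had 63 counts over 1, a pooled ratio of 39.1 (6.77 to 1569), and Lhx5 19 over 1, a ratio of 11.8 (1.88 to 490). Both genes passed the filter on low counts through NPC libraries, so a call of lower was hardly possible for them. In the ΔZF1 line 8 were higher and 1 lower, led by Pax3 with a ratio of 49.6 (13.6 to 413), Msx1 at 5.10 and Olig3, which marks the most dorsal progenitors, at 4.30.

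In E14, Gsx1 was at least 24.8-fold higher in NPCs, with ESC libraries at 0, and Olig3 had a ratio of 72.7 (19.8 to 606); 2 of 6 were higher and 1 lower. In Podxl pA 3 were higher and 1 lower, with Olig3 at least 39.97-fold and Gsx1 at least 15.3-fold higher. In Grb10 pA 1 was higher, Olig3 at least 10.0-fold, and 1 lower. Against wild type, Olig3, Msx1 and Atoh1 were higher in NPC-ΔZF1 (1.91, 1.73 and 1.53) and Msx2 was lower (-0.97), 3 and 1 of 12, whereas in NPC Grb10 pA 0 of 6 were higher and 3 were lower, Gsx1 at -4.29, Olig3 at -2.07 and Msx1 at -1.54. None of the 3 lists had a call in ESC-ΔZF1 or in either Podxl pA comparison with wild type by edgeR, and 8 of the 55 tests there had an unadjusted p under 0.05. In the E14 and truncation lines Gsx1 and Olig3 had few or no ESC counts and passed the filter on low counts through NPC libraries. The shares of all tested genes are given with the ventral progenitor factors.

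Irx3 and Lhx1 were the members that reached 10 counts in every library of at least 1 group in both tables, and their patterns were compared with those of 13226 genes, by the smaller of Pearson's r of log2 CPM over the 8 rescue and the 18 other libraries. The nearest to Irx3 were Cnr1 (0.952), Mpdz (0.945) and Kdm2b (0.944), and the nearest to Lhx1 were Eml1 (0.958), Flrt3 (0.957) and Tent5a (0.955). The libraries share cell types, so any gene that differs between ESCs and NPCs scores high, and these values are descriptions only.

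Antisense genes overlap 3 members, and because the counts were made without strand, reads of a gene and its antisense partner cannot be told apart. Irx3os shares 124 exon bases with Irx3 and had 0 to 14 counts in the rescue libraries and 0 to 7 in the others. Nkx2-2os shares 278 bases with Nkx2-2 and had 0 to 1 and 0 to 3 counts, and Gm27196 shares 188 bases with Lhx3 and had 0 to 1 in each table. These counts were below those of Irx3 in NPCs and of Nkx2-2 in the rescue NPCs. Gm27196 summed to 1 count over the 18 E14 and truncation libraries, where Lhx3 summed to 28.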

How the data were processed

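RNA was ribosomal RNA-depleted total RNA. The authors aligned reads to mm10 with STAR and deposited raw gene counts (featureCounts, without strand, no normalization) in a table for the 8 rescue libraries and a table for the 18 others; the annotation and versions are not given in the sources used here, and 3 columns of the second table that match no sample were not used. The labels number the replicates but do not say that they were separate cultures, so p-values measure only the spread between these libraries. The 10 members and all gene lists were chosen with earlier results of these data known.

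Each table was fitted whole in R 4.3.3 with edgeR 4.0.16 (TMM, filterByExpr, a mean for each group, glmQLFit, glmQLFTest; self-tested on simulated data). Calls used the authors' cutoffs: a Benjamini-Hochberg adjusted p of 0.05 or less together with a change of 0.5 or more, up or down, on the log2 scale. CPM used TMM library sizes, and RPKM the union exon length of GENCODE M21 (GRCm38), from which positions were taken. A group at 0 was set at a floor of 3 counts over the group, and ratios over 1 to 3 counts have exact 95% intervals. Both cover counting error only. The floor covers it for the group at 0 alone, so a fold given as at least a value leaves out the counting error of the higher group. All 10 members were named, up to 6 called genes of the 3 spinal cord lists in each comparison by the size of their change, and 3 genes for likeness. Alternatives were RLE scaling, other filters, a replicate block, DESeq2 1.42.0 (the authors' tool), fits on the compared libraries only, chromosome medians in the offsets, and leaving out each library. The median of all genes lay between -0.02 and 0.02 in every comparison. No pair of libraries agreed within sampling noise. The 11 promoter windows found for the 10 members are RefSeq's.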

Additional observations from a re-analysis of the deposited data

Results flagged for a closer look

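The libraries of Mnx1 lay on opposite sides in different lines. In the wild-type rescue both NPC libraries were above both ESC libraries, but the log2 fold change of 0.14 (95% interval -0.87 to 1.16, edgeR adjusted p = 0.819) sets no direction, and in the ΔZF1 rescue it was -0.28 with overlapping groups. In E14, Podxl pA and Grb10 pA every NPC library was below every ESC library of its line, with log2 fold changes of -1.36, -1.24 and -1.40. The tables were normalized separately, and whether the lines differ was not tested.

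Among the 27 tested genes of the 3 spinal cord lists, 3 had an effect of ΔZF1 in NPCs that differed from that in ESCs by the edgeR interaction test: Foxa2 by 3.21 on the log2 scale (adjusted p = 0.0350), Gata2 by -1.13 (0.0211) and Msx2 by -1.19 (0.0141). Over all tested genes 1.59% were higher and 1.11% lower in this test. In the Grb10 pA line the change from ESCs to NPCs differed from that in E14 for 2 of 14 tested genes. These were Foxn4 by -2.18 (edgeR adjusted p = 0.00464) and Gata2 by -2.49 (0.000522). Over all tested genes 2.86% were higher and 3.04% lower in that test. None of the 10 members had such an interaction.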

How the results depend on the processing

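Of 187 alternative counts of called members, 172 were within 1.5 times the reported count and 15 were not, and no result reversed. For NPC-ΔZF1 against NPC-WT the reported count of 1 became 2 with no filter on low counts, 0 with DESeq2, 0 with only the libraries compared and 0 to 1 without 1 library. For NPC-WT against ESC-WT the count of 4 became 1 with only the libraries compared, and 2 to 4 without 1 library; for NPC-ΔZF1 against ESC-ΔZF1 it became 2 to 4 without 1 library (2 without ESC-ΔZF1 replicate 1 or NPC-ΔZF1 replicate 1). For E14 NPC WT against E14 ESC WT the count of 3 became 1 with only the libraries compared. For NPC Grb10 pA against E14 NPC WT the count of 1 became 0 with chromosome medians in the offsets, and 0 to 1 without 1 library. In the fits on only the libraries compared, some members fell under the filter on low counts and were not tested. These were Lhx1, Nkx2-2 and Nkx6-1 in the wild-type rescue, and Lhx1 and Mnx1 in E14. The cause of the other shifts was not tested. Fits that did not test a member are left out of the tally for single members. Of the alternatives for single members, 190 kept the call and 31 lost it: Irx3 from ESCs to NPCs kept it in every fit of all 5 lines, Mnx1 from ESCs to NPCs in 7 of 12 (E14), 6 of 12 (Podxl pA) and 13 of 13 (Grb10 pA), and Lhx1 in NPC-ΔZF1 against NPC-WT in 5 of 11. With 1 library left in a rescue group, that library is assumed to vary like those of the other groups.

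With the replicate number as a block, the count of members called in NPC-ΔZF1 against NPC-WT became 0 (Lhx1 log2 fold change 1.28, edgeR adjusted p = 0.0505), and 2936 called genes became 2740; in no other comparison did the block change a member's call. Same-numbered libraries correlated at -0.25 to 0.17 in their deviations from the group means, which shows no strong shared effect. With so few libraries a group, this cannot settle whether same-numbered libraries came from one culture or batch. Depth is a limit: 206 of 260 member values were under 10 counts, and absence of Olig2 or Neurog2 cannot be shown.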
